A study of Mus musculus with 20 samples.

Results

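The utricles of ovariectomised mice that carried an estradiol pellet (OVX + E2) were compared with those of intact, sham-operated mice that carried a vehicle pellet (sham + v). These groups are 10 of the 20 libraries of the series, 5 in each group, and the ovariectomised mice without hormone do not enter the comparison. Genes with at least 10 counts in each of the 10 libraries were compared, which kept 2433 of the 25655 genes listed. Female C57BL/6J mice underwent surgery when they were 8 weeks old, and their utricles were collected 4 weeks later. The sham + v mice kept their ovaries, and the stage of their estrous cycle was not taken into account. The OVX + E2 mice had both the ovaries removed and a subcutaneous pellet that released 50 µg of estradiol over 60 days. The groups therefore differ in the ovaries, in the hormone and in the way it was supplied, and these cannot be told apart. RNA was read from the 3′ ends of mRNA, starting from 1 ng of total RNA per library, and the other 2 groups of the study, OVX + v and OVX + RAL (raloxifene), are given only as levels. The labels do not say that each library came from a separate mouse, so the p-values measure the spread between the libraries.

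The utricle senses linear acceleration: hair cells lie under a gelatinous membrane loaded with otoconia, crystals of calcium carbonate on a protein matrix, and supporting cells, dark cells, fibrocytes and Schwann cells surround them. Estradiol acts through the nuclear receptors ERα and ERβ, which bind estrogen response elements in DNA and recruit coactivators and corepressors, and through the membrane receptor GPER1. A slow-release pellet gives a steady supply of the hormone, whereas the ovary of an intact mouse supplies estradiol in a cycle together with progesterone.

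The libraries of the groups differed before any gene was compared. The total count was 2053255, 1905344, 1687326, 1788489 and 1507719 in sham + v libraries 1 to 5, and 1507667, 1324047, 1247585, 1123053 and 1425679 in OVX + E2 libraries 11 to 15. Every OVX + E2 total lay below every sham + v total (exact permutation test, two-sided, p = 0.00794, the smallest that 5 against 5 can give; adjusted over 5 measures p = 0.0397). At the depth of the smallest library, 7976 to 9865 genes had 3 counts or more in the sham + v group and 6530 to 8797 in the OVX + E2 group (exact permutation p = 0.0714, adjusted over 5 measures p = 0.179). OVX + E2 libraries 13 and 14 held the fewest genes of the 10, and the sham + v library 1 stood apart by a low share of mitochondrially encoded transcripts, 4.80% against 9.92% to 12.3% in the other sham + v libraries and 7.54 to 11.8% in the OVX + E2 libraries. The share of ribosomal protein genes was 7.12 to 8.36% and 7.16 to 8.97%. The labelled tissue could be read in both groups: *Otog* (otogelin), *Otol1* (otolin-1), *Coch* (cochlin), *Ush1c* and *Myo6* had counts in all 10 libraries, whereas *Oc90*, which encodes the main otoconial matrix protein otoconin-90, reached 3 counts in 4 of the 10 libraries and *Otop1*, a proton channel needed for otoconia, in 4.

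**Figure D1:**
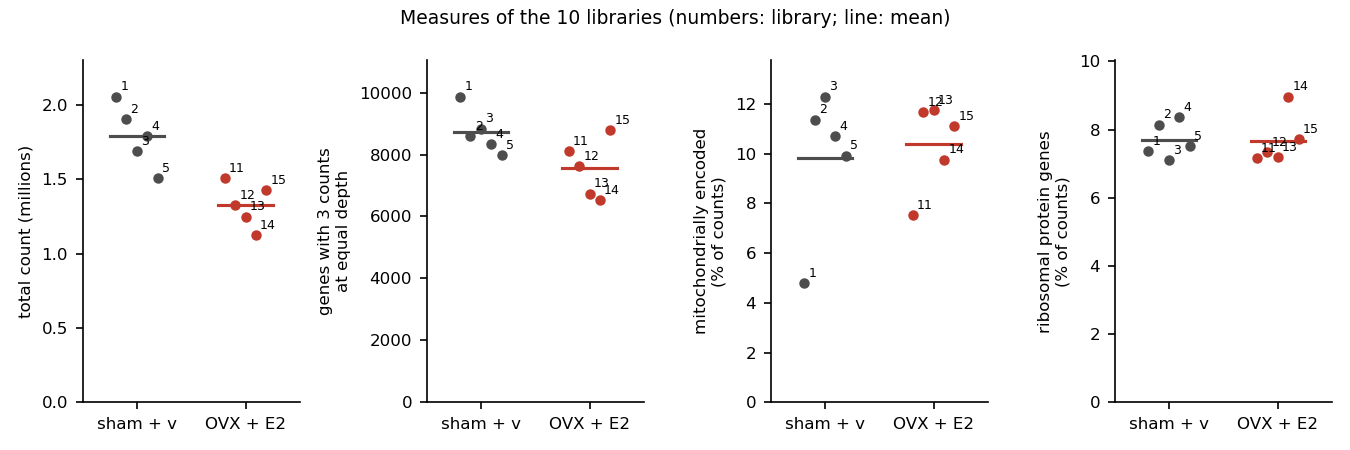
Total counts, genes with 3 counts or more at equal depth, and the shares of mitochondrially encoded and of ribosomal protein genes in each of the 10 libraries, with points numbered by library and lines at the group means. The 5 OVX + E2 totals lie below the 5 sham + v totals, and library 1 is low in mitochondrially encoded transcripts.

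No gene passed the threshold between the OVX + E2 and sham + v groups: edgeR called 0 of 2433 genes (0%), and the smallest adjusted p was 0.927. DESeq2, with a smallest adjusted p of 0.0812, and limma also called 0 genes. At an unadjusted p under 0.05 edgeR gave 121 genes (4.97% of those tested), 74 of them with a higher and 47 with a lower level after estradiol, DESeq2 162 and limma 142. The edgeR share is close to the threshold itself under this filter, and other filters gave other shares. With default filterByExpr 112 of 8029 genes had such a p, 51 of them higher and 61 lower. With TMM normalization 114 of the 2433 genes had such a p, 53 higher and 61 lower. The median log2 fold change, given throughout as OVX + E2 minus sham + v, was 0.06, and 0.02 with TMM normalization. The range after a log2 fold change is its 95% interval. In whole-utricle RNA, fewer cells of a type and less RNA per cell cannot be told apart.

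How large a difference these libraries could have shown depended on the level of the gene. Of the 94 genes with a mean of 1000 CPM or more, 92 had a 95% interval wholly between -1 and 1 on the log2 scale, that is, inside a doubling in either direction. Between 200 and 500 CPM this held for 300 of 517 genes, and between 50 and 100 CPM for 0 of 721. Over all genes it held for 553 of 2433, or 22.7%. In counts simulated with the spread of these libraries, edgeR recovered 159 of 200 genes changed by 2 on the log2 scale and 16 of 200 changed by 1, with 5 and 1 false calls. DESeq2 recovered 166 and 37 in the same order, with 22 and 7 false calls. A missing call for a gene of modest level therefore does not show that it was equal in the groups.

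**Figure D2:**
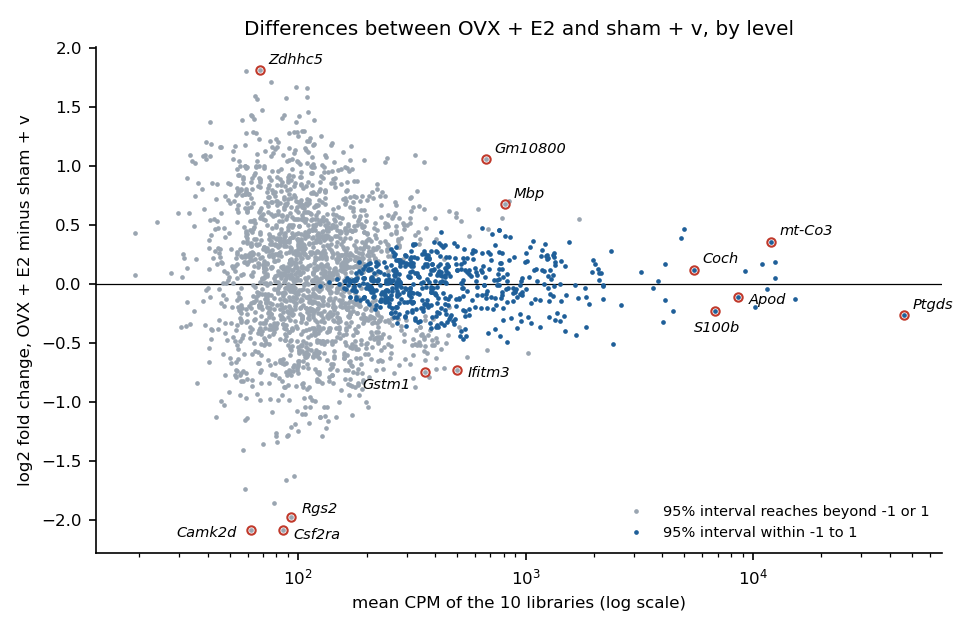
Log2 fold change (OVX + E2 minus sham + v) against the mean CPM of the 10 libraries on a log scale for the 2433 genes, blue where the 95% interval lies between -1 and 1. The fold changes narrow with the level, and the circled genes at the lower left, *Camk2d*, *Csf2ra* and *Rgs2*, have log2 fold changes near -1.98 and -2.09 with wide intervals.

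The 6 genes with the smallest p in each direction are given first, as values without a call. *Camk2d*, the delta subunit of calcium/calmodulin-dependent kinase II (chromosome 3, 126389951 to 126639975, plus strand, GRCm39), had 46.8, 89.7, 59.9, 143 and 165 CPM in the sham + v libraries and 31.8, 14.3, 24.8, 16.03 and 30.9 CPM in the OVX + E2 libraries. The groups did not overlap, the log2 fold change was -2.09 (95% interval -3.31 to -0.87), and the edgeR p was 0.00131 unadjusted and 0.927 adjusted. *Rgs2*, which shortens signalling by G proteins (chromosome 1, 143875076 to 143879899, minus strand, GRCm39), had 169, 89.7, 231, 166 and 86.9 CPM in the sham + v libraries and 25.9, 22.7, 24.05, 42.7 and 72.9 CPM in the OVX + E2 libraries. Its groups did not overlap either, with a log2 fold change of -1.98 (-3.13 to -0.82; edgeR adjusted p = 0.927). In the groups outside the comparison, *Rgs2* was 47.6 to 118 CPM in the OVX + v libraries and 63.4 to 161 CPM in the OVX + RAL libraries.

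*Csf2ra*, a chain of the receptor for granulocyte-macrophage colony-stimulating factor, had 95.5, 63.5, 25.5, 173 and 338 CPM in the sham + v libraries and 25.2, 18.1, 25.6, 54.3 and 39.98 CPM in the OVX + E2 libraries. Its groups overlapped through the sham + v library 3. *Il17rd*, an inhibitor of fibroblast growth factor signalling, was 122 ± 68.5 CPM (SD, n = 5) in the sham + v group and 33.7 ± 13.1 CPM in the OVX + E2 group, and *Ormdl3*, a regulator of sphingolipid synthesis, 144 ± 67.96 CPM and 46.5 ± 27.3 CPM. *Srgap2*, a GTPase-activating protein, was 90.1 ± 75.6 CPM and 26.9 ± 13.1 CPM. The log2 fold changes of these 4 genes were -2.09, -1.86, -1.63 and -1.74, none of them past the threshold. Without the sham + v library 5, that of *Csf2ra* was -1.45 and that of *Srgap2* -1.15.

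In the higher direction the gene with the smallest p was *Gm10800*, a gene model that carries repeated sequence. It had 178, 428, 321, 440 and 812 CPM in the sham + v libraries and 941, 994, 1336, 1037 and 224 CPM in the OVX + E2 libraries. OVX + E2 libraries 11 to 14 lay above every sham + v library, and library 15 was lower than 4 of the 5 (log2 fold change 1.06, 0.38 to 1.74; edgeR adjusted p = 0.927). It was 163 to 459 CPM in the OVX + v libraries and 102 to 598 CPM in the OVX + RAL libraries. The span of the gene in the deposited table (chromosome 2, 98496892 to 98497646, minus strand, GRCm39) was cut into 33 windows of the read length of 63 bases, and 10 of them occur at more than 1 place in the GRCm39 genome. The window with the most copies, 32 in the assembly, lies at chr2:98497017-98497079 on the minus strand and is shown because a read of it cannot be assigned to this gene alone; it is written 5′ to 3′ in lower case with no part in capitals.
Gm10800 window: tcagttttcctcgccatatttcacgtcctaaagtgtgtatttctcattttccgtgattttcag
As background, these are letters of the major satellite of mouse pericentromeric repeats, and the count of *Gm10800* is uncertain as a measure of 1 gene. The related models *Gm10801* and *Gm10718* had 16.2 to 72.3 and 0 to 34.97 CPM in the sham + v libraries and 5.61 to 295 and 30.9 to 198 CPM in the OVX + E2 libraries, and did not reach 10 counts in every library.

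*Zdhhc5*, an enzyme that attaches palmitate to proteins, had 31.2, 15.2, 40.3, 22.4 and 41.1 CPM in the sham + v libraries and 67.7, 81.6, 84.2, 183 and 112 CPM in the OVX + E2 libraries. The groups did not overlap (log2 fold change 1.81, 0.62 to 3.005; edgeR adjusted p = 0.927). *Gstt1*, a glutathione S-transferase of the theta class, had 7.31, 13.1, 27.9, 28.5 and 54.4 CPM in the sham + v libraries and 53.1, 79.3, 135, 148 and 44.2 CPM in the OVX + E2 libraries. Only the sham + v library 5 reached into the range of the OVX + E2 libraries, and the log2 fold change of 1.81 (0.54 to 3.07) was 1.17 without libraries 13 and 14, left out after seeing the data. The remaining genes of this kind were *Fkbp2*, a prolyl isomerase of the endoplasmic reticulum (1.67), *Pam*, which amidates peptide hormones (1.66), and *Fam178b* (1.59). *Fkbp2* and *Pam* were highest within the sham + v group in library 1, at 81.8 and 138 CPM, against 45.1 and 39.7 CPM at most in the other 4 libraries. Without library 1 the log2 fold change of *Pam* was 2.42.

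**Figure D3:**
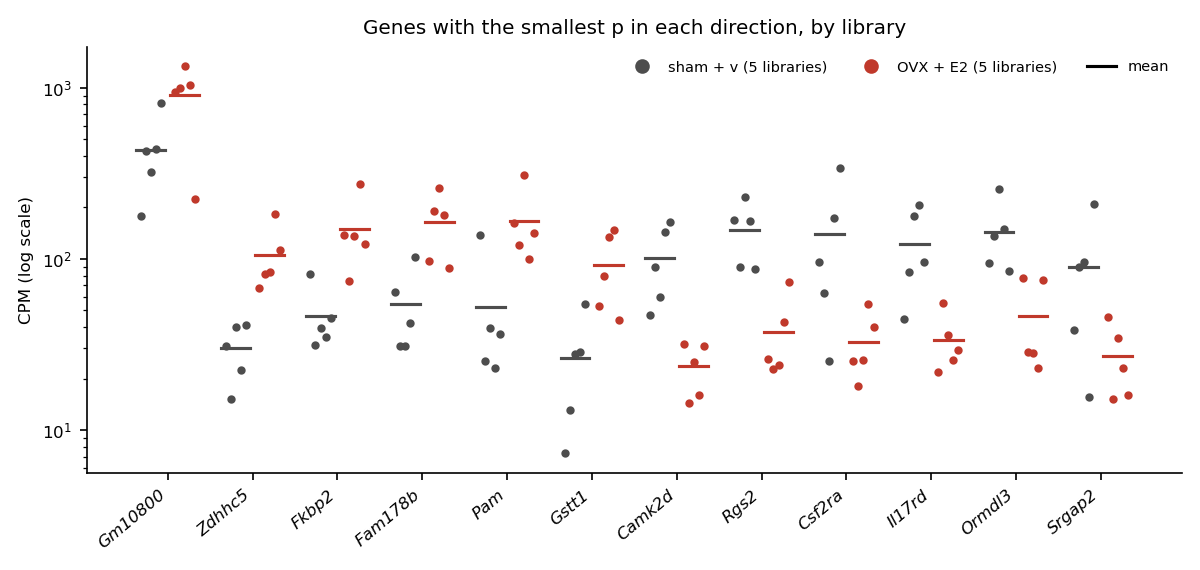
CPM on a log scale of the 6 genes with the smallest p in each direction, a point per library and a line at the group mean. *Zdhhc5*, *Camk2d*, *Rgs2* and *Ormdl3* do not overlap between the groups, and *Gm10800* has 1 OVX + E2 library among the low values.

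In 6 genes (0.247% of those tested) every OVX + E2 library was above every sham + v library, and in 11 (0.452%) every one was below. The higher genes were *Zdhhc5*, *Mlec*, *Mras*, *Nedd4*, *Phf1* and *Zfp467*, and the lower ones *Camk2d*, *Rgs2*, *Ormdl3*, *Aftph*, *Cox5a*, *Eid1*, *Gstm1*, *Marveld1*, *Ociad1*, *Rala* and *Ssb*; apart from those with the smallest p, they were chosen after their values were seen. *Nedd4*, a ubiquitin ligase, was the most abundant of the higher genes, at 427, 401, 478, 381 and 273 CPM in the sham + v libraries and 492, 624, 487, 759.5 and 605 CPM in the OVX + E2 libraries. Its lowest OVX + E2 library differed from the highest sham + v library by a few CPM (log2 fold change 0.60, 0.07 to 1.13). *Mlec*, a lectin of the endoplasmic reticulum, had group means of 85.7 ± 29.6 CPM and 197 ± 70.4 CPM (1.20, 0.24 to 2.16). *Ociad1* was 289, 200, 232, 249 and 275 CPM in the sham + v libraries and 156, 129, 155, 95.3 and 134 CPM in the OVX + E2 libraries (-0.90, -1.69 to -0.10), with a clear gap between the groups. *Rala*, a small GTPase of vesicle traffic, was 179 ± 32.5 CPM and 82.2 ± 37.6 CPM (-1.12, -2.12 to -0.12).

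The estrogen receptors themselves were at or near 0 in most libraries, where 3 counts correspond to 1.46 to 2.67 CPM. *Esr1* (ERα) reached 3 counts in 4 of the 10 libraries, at up to 59.3 CPM, *Esr2* (ERβ) in 2 and *Gper1* in 2, and a difference between the groups was not detectable at this depth. *Esr2* and *Gper1* each reached 3 counts in 1 OVX + E2 library, with group means of 14.25 and 10.86 CPM. In the sham + v group each also did so in 1 library, with means of 0.42 and 1.185 CPM. Of 19 receptors and coregulators, 4 were tested, with a median log2 fold change of 0.46 against 0.06 over all genes tested, and 0 passed the threshold. *Crebbp*, a coactivator with acetyltransferase activity, had 65.7, 34.6, 132, 38.6 and 33.8 CPM in the sham + v libraries and 163, 59.7, 220.4, 118 and 189 CPM in the OVX + E2 libraries, a log2 fold change of 1.30 (0.18 to 2.42) at an unadjusted edgeR p of 0.0244. The groups overlapped through the sham + v library 3 and the OVX + E2 library 12. The corepressor *Ncor1* had a log2 fold change of -0.45 (-1.18 to 0.28).

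Of 20 genes that estrogen is known to induce in uterus or breast, 5 were tested and 4 had a log2 fold change above 0, with a median of 0.15 and none past the threshold. *Igfbp4*, a binding protein of insulin-like growth factors, had 628, 283, 266, 196 and 234 CPM in the sham + v libraries and 694, 384, 213, 486 and 596 CPM in the OVX + E2 libraries. Library 1 of the sham + v group lay above every OVX + E2 library but library 11, and the OVX + E2 library 13 lay below every sham + v library but library 4 (log2 fold change 0.56, -0.10 to 1.23). Without library 1 the log2 fold change was 0.96. RefSeq promoters of GRCm38.p6 were matched by symbol for 1936 of the 2433 genes, as windows of 300 bases around the start. The full estrogen response element, searched as the palindrome of GGTCA and its complement with a spacer of 3 bases, occurs in 23 of all 32851 promoters (0.07%) and in 0 promoters of the tested genes. A single arm, GGTCA on either strand, which overlaps the full element, occurs in 40.5% of all promoters, in 37.9% of the 2534 promoters of tested genes, and in 39 of 121 promoters (32.2%) of the 95 matched genes with an unadjusted p under 0.05; a gene can have several promoters. These are letters found in a short window and do not describe binding.

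No gene of the otoconia or of the membrane that holds them passed the threshold. *Otog*, which encodes otogelin of the otolithic membrane, had 1305, 4099, 3055, 2092 and 3361 CPM in the sham + v libraries and 2027, 3257, 2305, 2035 and 2695 CPM in the OVX + E2 libraries. The OVX + E2 libraries lay within the range of the sham + v libraries (log2 fold change -0.18, -0.65 to 0.30). *Otol1*, the collagen-like scaffold of otoconia, had a log2 fold change of -0.15 (-1.03 to 0.73), and *Sparc*, a calcium-binding matrix protein, -0.15 (-0.61 to 0.31). Of the 13 listed genes 6 were tested, 1 above 0 and 5 below, with a median of -0.15. Of the otopetrins and the Nox3 oxidase, only *Cyba* was tested (0.61), and *Nox3* reached 3 counts in 4 of the 10 libraries.

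No hair cell or supporting cell gene passed the threshold. *Ush1c*, which encodes the hair bundle scaffold harmonin, had 307, 645, 432, 337 and 496 CPM in the sham + v libraries and 531, 396, 472, 117 and 319 CPM in the OVX + E2 libraries. Its lowest value was in the OVX + E2 library 14 (log2 fold change -0.27, -0.92 to 0.38), and the log2 fold change was -0.046 without it and -0.099 without sham + v library 2. The motor *Myo6* had a log2 fold change of 0.17 (-0.45 to 0.78) and the potassium channel *Kcna10* 0.34 (-0.31 to 0.99). Without library 1 *Myo6* was at 0.006, and without library 11 *Kcna10* was at 0.047. Of 30 hair cell genes 9 were tested, with a median of 0.17, and of 22 supporting cell and Notch genes 8, with a median of 0.28; 6 and 6 of them were above 0. *Atp2b2*, the plasma membrane calcium pump of the hair bundle, had the lowest log2 fold change among the hair cell genes, -1.29, at an unadjusted edgeR p of 0.0204. *Id3*, an inhibitor of helix-loop-helix transcription factors in the supporting cell list, had 297, 104, 123, 106 and 161 CPM in the sham + v libraries and 371, 338, 409.6, 294 and 213 CPM in the OVX + E2 libraries. The groups overlapped, with an unadjusted edgeR p of 0.0078 (log2 fold change 1.04, 0.29 to 1.79; adjusted p = 0.927). *Glul*, glutamine synthetase, was 1205 ± 245 CPM (SD, n = 5) in the sham + v group and 1448 ± 86.7 CPM in the OVX + E2 group (0.27, -0.16 to 0.69).

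Genes of ion transport showed no call. Of 13 genes of potassium transport by dark cells 8 were tested, with a median of 0.14. *Slc12a2*, the sodium-potassium-chloride cotransporter that loads potassium into dark cells, had 380.4, 519.6, 802, 527 and 725 CPM in the sham + v libraries and 474, 406, 451, 377 and 529.6 CPM in the OVX + E2 libraries. The groups overlapped, with library 14 the lowest and library 3 the highest (log2 fold change -0.40, -0.93 to 0.13). *Atp1b2*, a beta subunit of the sodium pump, ranged from 472 to 2057 CPM in the sham + v group, lowest in library 1, and from 801 to 1885 CPM in the OVX + E2 group. *Atp2a2*, the calcium pump of the endoplasmic reticulum, had 125, 177, 151, 128 and 226 CPM in the sham + v libraries and 339, 333, 172, 261 and 302 CPM in the OVX + E2 libraries. It was higher in 4 of the OVX + E2 libraries than in any sham + v library, and the unadjusted edgeR p was 0.0347 (log2 fold change 0.80, 0.06 to 1.55; adjusted p = 0.927). The list of calcium genes had 6 tested members with a median of -0.21 and that of carbonic anhydrases and bicarbonate transport 3 with a median of -0.19. No aquaporin was tested.

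The most abundant transcript was *Ptgds*, which encodes lipocalin-type prostaglandin D synthase, a carrier of lipophilic molecules (chromosome 2, 25356721 to 25360058, minus strand, GRCm39). It had 85939, 37322, 39966, 43311 and 45432 CPM in the sham + v libraries and 54189, 38159.5, 41188, 35057 and 40768 CPM in the OVX + E2 libraries. Library 1 of the sham + v group stood above all others, and the ranges of the remaining libraries overlapped (log2 fold change -0.27, -0.71 to 0.17; edgeR adjusted p = 0.965), and without library 1 it was 0.01. *Apod*, apolipoprotein D, had 14264, 8002, 7291, 7671 and 7474 CPM and 10399.5, 7507, 7947, 7008 and 8429 CPM in the same order, and *Apoe* a log2 fold change of -0.23 (-0.64 to 0.19). *S100b*, a calcium-binding protein of glia, was 11427, 5858, 5463, 6306 and 7647 CPM in the sham + v libraries and 7937, 6869.8, 5342, 5299.8 and 5827 CPM in the OVX + E2 libraries. For *Apod*, *Apoe* and *S100b* as for *Ptgds*, library 1 gave the highest value of all 10. Without it *Apoe* was at -0.076 and *S100b* at -0.015 on the log2 scale. All 6 tested S100 genes had a log2 fold change below 0, also with TMM normalization, with a median of -0.22, and 0 passed the threshold; the median of the 6 tested lipophilic carriers was -0.17. In the groups outside the comparison, *S100b* was 7497 to 10189 CPM in the OVX + v libraries and 5789 to 19944 CPM in the OVX + RAL libraries.

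Of 18 listed fibrocyte and stromal genes 11 were tested, with a median of 0.22. Of these, 10 were above 0, against 1353 of 2433 over all genes. Genes under 10 counts in any library could not enter. Among those left out, *Vim*, *Lum*, *Ogn* and *Fmod* had lower means in the OVX + E2 group. *Pou3f4*, *Emilin2* and *Omd* had higher means there, though the medians of *Pou3f4* and *Emilin2* were lower. The direction of the tested members was therefore not that of the whole list. *Coch*, the fibrocyte matrix protein cochlin, had 8535, 4164, 4402, 4772 and 4386 CPM in the sham + v libraries and 7992, 5119.9, 5315, 5075 and 5045 CPM in the OVX + E2 libraries. Library 1 and library 11 were each far above the other 4 of their group (log2 fold change 0.12, -0.31 to 0.55). *Car3*, the only tested member below 0, had -0.18 (-0.74 to 0.37). The collagens had 4 tested members with a median of -0.23, and the bone matrix genes 3 with a median of -0.15. *Spp1*, osteopontin, had 735, 329.6, 328, 270.1 and 326 CPM in the sham + v libraries and 727, 719, 687, 293 and 525 CPM in the OVX + E2 libraries. Sham + v libraries 2 to 5 and OVX + E2 library 14 formed the lower values, with library 1 beside the other OVX + E2 libraries (log2 fold change 0.57, -0.03 to 1.17). With single libraries left out the log2 fold change of *Spp1* ranged from 0.46 to 0.91. No gene of osteoclasts or of the RANKL-osteoprotegerin system was tested.

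Myelin genes were given by 10 tested members of 20, with a median of 0.04 that was -0.0014 with TMM normalization. *Mbp*, myelin basic protein, had 319, 531, 823, 443 and 1011 CPM in the sham + v libraries and 652, 951, 1235, 1457 and 706 CPM in the OVX + E2 libraries. It reached an unadjusted edgeR p of 0.0195 (log2 fold change 0.68, 0.12 to 1.24; adjusted p = 0.927), with overlapping groups. The neurofilament *Nefm* had -0.49 (-1.49 to 0.52), and it and *Nefl* were the only neuronal genes tested. The 2 tested melanocyte genes had a median of -0.11.

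Markers of cells that the dissection may carry along were read in both groups. Over all listed genes, the summed level of 16 neutrophil and lymphocyte markers was 5.93 to 144 CPM in the sham + v libraries and 3.56 to 55.4 CPM in the OVX + E2 libraries, that of 20 macrophage markers 333 to 1307 and 223 to 699.8 CPM, and that of 16 skeletal muscle genes 24.7 to 280 and 83.1 to 287 CPM. The ranges of the groups overlapped for all of these lists. The 16 genes of middle ear mucosa and glands summed to 409.8 to 903 and 372 to 1056 CPM, and the 20 endothelial and pericyte genes to 235 to 716 and 353 to 1033 CPM. Of these lists 3 mucosa and gland genes, 2 endothelial and pericyte genes, *Kdr* and *Pdgfrb*, and no neutrophil, lymphocyte or skeletal muscle gene were tested, with medians of 0.02 for the first and 0.34 for the second. Blood transcripts varied within the OVX + E2 group: *Hba-a2*, an alpha globin, had 777, 308, 329.5, 546 and 495 CPM in the sham + v libraries and 84.9, 145, 257, 396 and 1259.8 CPM in the OVX + E2 libraries. *Hbb-bs*, a beta globin, had 1381 CPM in the same OVX + E2 library 15 and at most 566 CPM elsewhere. The log2 fold changes were -0.20 (-1.04 to 0.65) and 0.21 (-0.68 to 1.09), and the 3 tested genes of hemoglobin and heme synthesis had a median of 0.21. *Lyz2*, lysozyme of macrophages and the only macrophage gene tested, was highest in library 1 (log2 fold change -0.72, -1.55 to 0.12, and -0.30 without it).

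Among interferon-stimulated genes 4 of 23 were tested, with a median of -0.22. *Ifitm3*, a membrane protein that restricts viral entry, had 707, 834, 422, 529 and 624 CPM in the sham + v libraries and 504, 509, 119, 451 and 290.4 CPM in the OVX + E2 libraries. The groups overlapped, with an unadjusted edgeR p of 0.0219 (log2 fold change -0.73, -1.35 to -0.11; adjusted p = 0.927). The class I antigen *H2-K1* had -0.37 (-0.93 to 0.19), and the 4 tested genes of antigen processing a median of 0.12. None passed the threshold.

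Of 68 tested nuclear subunits of oxidative phosphorylation, 37 were above 0 and 31 below, with a median of 0.09, and 33 had intervals within -1 to 1. An unadjusted edgeR p under 0.05 was reached by 3 of them with a log2 fold change above 0 and 0 below, beside 4.97% over all genes tested, so their number is near the background. These were *Uqcrq*, a subunit of complex III, at 1.07 (0.28 to 1.86), and the complex I subunits *Ndufa6* at 0.73 (0.01 to 1.45) and *Ndufa8* at 1.23 (0.04 to 2.42). *Uqcrq* had 208, 167, 101, 200.2 and 118 CPM in the sham + v libraries and 319, 103, 223, 578 and 447 CPM in the OVX + E2 libraries, and the groups overlapped. *Cox6c*, a subunit of cytochrome c oxidase, had 0.35 (-0.06 to 0.77) and *Atp5g3*, a subunit of the ring of ATP synthase, -0.37 (-0.81 to 0.07). *Cox5a* was one of the genes without overlap, at 230.4, 303, 264, 207 and 199 CPM in the sham + v libraries and 152, 150.3, 164, 56.99 and 187 CPM in the OVX + E2 libraries. Its log2 fold change was -0.76 (-1.59 to 0.07) at an unadjusted edgeR p of 0.0701. The 13 tested mitochondrially encoded genes, 8 above 0, all had intervals within -1 to 1, with a median of 0.11, and *mt-Nd4* had -0.13 (-0.57 to 0.31) and *mt-Cytb* 0.05 (-0.40 to 0.51). At an unadjusted edgeR p under 0.05 were *mt-Nd3*, at 0.46 (0.02 to 0.90), and *mt-Nd6*, at -0.51 (-0.94 to -0.08); *mt-Nd6* is encoded on the strand opposite to the others, and whether the counting used strand is not given in the sources used here. The 76 tested ribosomal protein genes had a median of 0.0034, 40 above 0 and 36 below, and 72 had intervals within -1 to 1; with TMM normalization 31 were above 0 and the median was -0.04. *Rpl21*, *Rpl4* and *Rps6* reached an unadjusted edgeR p under 0.05, at -0.87 (-1.60 to -0.14), -0.56 (-1.11 to -0.01) and -0.50 (-0.97 to -0.02). With single libraries left out they ranged from -1.38 to -0.69, -0.83 to -0.41 and -0.58 to -0.37.

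The antioxidant and phase II genes, 21 tested, had a median of -0.03, with 9 above 0 and 12 below. *Ftl1*, the ferritin light chain, had 1422, 971, 929.9, 1028 and 1045 CPM in the sham + v libraries and 1440, 1463, 1577, 1061 and 1291 CPM in the OVX + E2 libraries. Outside library 1, every sham + v library was below every OVX + E2 library (log2 fold change 0.34, -0.09 to 0.77). Among glutathione S-transferases 8 of 23 were tested, 3 above 0 and 5 below, with a median of -0.57 and a range from -0.75 to 1.81. *Gstm1*, of the mu class, had 428, 353, 547, 372 and 564 CPM in the sham + v libraries and 291, 117, 336, 308 and 295 CPM in the OVX + E2 libraries. Every OVX + E2 library was below every sham + v library, while *Gstt1* of the same family had a log2 fold change above 0; for *Gstm1* the log2 fold change was -0.75 (-1.37 to -0.13) and the edgeR adjusted p 0.927. *Gstm1* was 373 to 633 CPM in the OVX + v libraries and 204 to 505 CPM in the OVX + RAL libraries.

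Of the stress and rhythm lists none had a gene past the threshold. The 17 tested heat shock genes and chaperones had a median of 0.08, and *Hspb1*, a small heat shock protein, had 967, 1098, 1071, 2158 and 1697 CPM in the sham + v libraries and 559, 2570.2, 2140.1, 3806 and 1145 CPM in the OVX + E2 libraries. Both its lowest and its highest value were in the OVX + E2 group, in libraries 11 and 14 (log2 fold change 0.55, -0.07 to 1.16), which was 0.20 to 0.79 with single libraries left out, lowest without library 14. The medians were -0.04 for 5 glucocorticoid targets and receptors, 0.12 for 6 clock genes, 0.18 for 2 immediate early genes and 0.27 for 7 genes of cholesterol synthesis and uptake. *Srebf2*, the transcription factor that drives cholesterol synthesis, was 228 ± 58.5 CPM in the sham + v group and 135 ± 48.5 CPM in the OVX + E2 group (-0.76, -1.60 to 0.09). Of the cell cycle genes only *Orc5* was tested (-0.41).

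**Figure D4:**
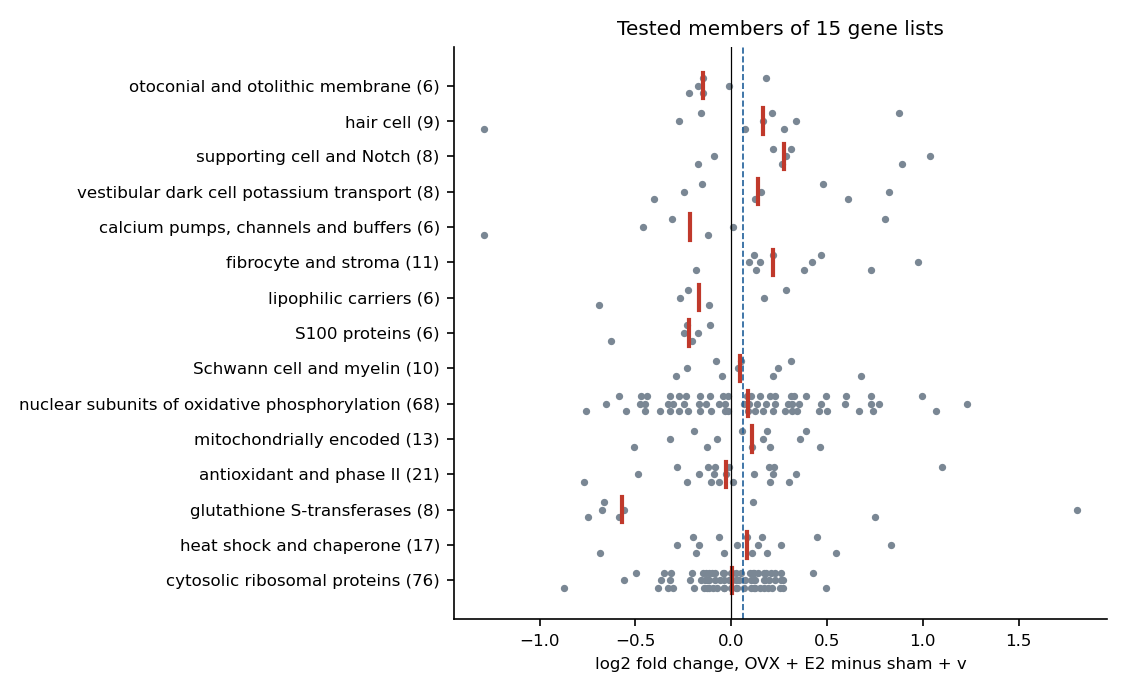
Log2 fold change (OVX + E2 minus sham + v) of each tested member of 15 gene lists, with the number of tested members in parentheses, a red line at the median of the list and a dashed line at the median of all genes tested. The medians lie between -0.57 for the glutathione S-transferases and 0.28 for the supporting cell and Notch genes.

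*Gstp1* and *Gstp2* encode the pi class of glutathione S-transferases, lie next to each other on chromosome 19 (4085407 to 4087985 and 4090285 to 4096023, minus strand, GRCm39), and are so alike that their reads can be split by the counting. *Gstp2* had 0, 596, 13.04, 376 and 70.3 CPM in the sham + v libraries and 23.9, 326, 265, 0 and 166 CPM in the OVX + E2 libraries. *Gstp1* had 431, 0, 371, 0 and 703 CPM and 314, 0, 0, 304 and 301 CPM in the same order. In both groups most libraries held nearly all reads under 1 of the 2 names, so neither gene alone describes a group. Their sum was 431, 596, 384, 376 and 773 CPM in the sham + v libraries and 338, 326, 265, 304 and 467 CPM in the OVX + E2 libraries, a difference of -0.56 on the log2(CPM + 1) scale (exact permutation test, two-sided, p = 0.0476, adjusted over 6 values p = 0.286). Of the OVX + E2 libraries, 4 were below every sham + v library, and the difference did not pass the correction. *Gstp2* alone differed by 0.14 (exact permutation p = 0.968) and *Gstp1* by -0.39 (exact permutation p = 0.571). The sum was 319 to 557 CPM in the OVX + v libraries and 213 to 422 CPM in the OVX + RAL libraries.

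*Amd1* (chromosome 10, 40163454 to 40178184, minus strand, GRCm39) and *Amd2* (chromosome 10, 35584671 to 35587888, minus strand) encode S-adenosylmethionine decarboxylase, an enzyme of polyamine synthesis. *Amd2* was at 575 CPM in the sham + v library 4 and at 0 in the other 4, and in the OVX + E2 group at 4.01 CPM in library 13 and at 0 in the others. The sham + v library 4 was also the lowest of all 10 in *Amd1*, with 410.4 CPM against 798 to 1212 CPM in the other sham + v libraries. The sum of both was 1149, 1212, 1156, 986 and 798 CPM in the sham + v libraries and 1714, 1073, 1048, 1256 and 1011 CPM in the OVX + E2 libraries, which differed by 0.19 (exact permutation p = 0.381).

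**Figure D5:**
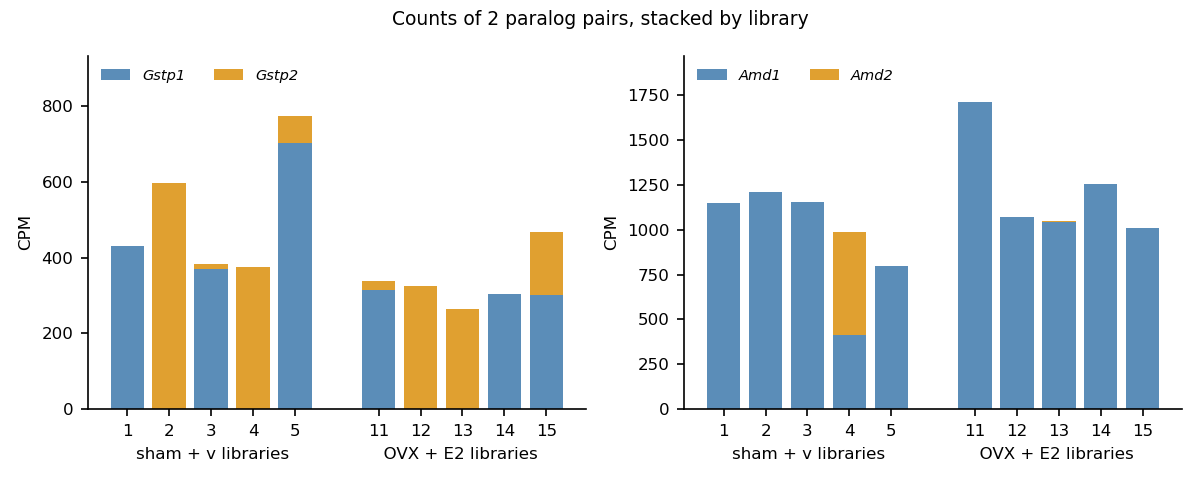
CPM of *Gstp1* and *Gstp2* (left) and of *Amd1* and *Amd2* (right), stacked for each of the 10 libraries. In both groups *Gstp1* is at 0 in some libraries and *Gstp2* in others, *Amd2* is seen only in the sham + v library 4 at this scale, and the stacked *Gstp* height is at or below 467 CPM in every OVX + E2 library.

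Genes that are absent from some libraries cannot enter the comparison above, so the 13501 genes whose counts over the 10 libraries add up to 10 or more were fitted as well. Here edgeR called 3 genes (0.0222%), *Amd2* and *Ptgds* lower and *mt-Co3* higher in the OVX + E2 group. *Amd2* (adjusted p = 0.00387) rests on the sham + v library 4, without which the log2 fold change is 3.43 in place of -7.06, and fitted values of a gene at 0 in nearly all libraries depend on the prior count. *Ptgds* (log2 fold change -0.27, edgeR adjusted p = 3.47e-08) rests on the sham + v library 1, without which the log2 fold change is 0.01. Its standard error was 0.0382 in this fit and 0.217 in the fit of 2433 genes. *mt-Co3*, a subunit of cytochrome c oxidase, had 3936, 12642, 13808, 12032 and 10153 CPM in the sham + v libraries and 10984, 15737, 15072, 12983 and 12681 CPM in the OVX + E2 libraries. The groups overlapped, library 1 was the lowest, and all 17 windows of the read length at its 3′ end occur at 2 places in the genome (log2 fold change 0.36, edgeR adjusted p = 0.00505; 0.927 in the fit of 2433 genes). Without library 1 it is 0.15 and the call is lost. The robust form of edgeR called 0 genes in this fit, and DESeq2 called 21. At an unadjusted p under 0.05 edgeR had 1912 of the 13501 genes, 753 higher and 1159 lower. This is a larger share than the 4.97% in the fit of 2433 genes. The robust form had 1829 and DESeq2 691, so the number depends on the tool and is not read as a number of differing genes.

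In 17 genes all 5 sham + v libraries had 3 counts or more and no OVX + E2 library did, and in 0 genes the reverse held. The first number is 0.117% of the 14487 genes with a count in the 10 libraries. After every library was thinned to the total of the smallest, a step added after seeing the data, the numbers were 16 and 1, with 14 of the 17 genes kept, and with at least 4 libraries in place of 5 they were 69 and 7. The genes were chosen after their values were seen and include *Calcrl*, the receptor of adrenomedullin and calcitonin gene-related peptide, *Fubp3*, an RNA-binding protein, *Nfs1*, which supplies sulfur for iron-sulfur clusters, and *Mvp*, the major vault protein. *Fubp3* was 45.2 ± 30.03 CPM in the sham + v group and at 0 in every OVX + E2 library, and *Nfs1* was 27.04 ± 12.2 CPM and at most 0.701 CPM. In the wider fit edgeR called none of these 17 genes, with adjusted p from 0.347 to 0.694. DESeq2 called 9 of them, *Alg10b*, *Cacnb3*, *Fubp3*, *Gcdh*, *Mtrf1l*, *Mvp*, *Nfs1*, *Plekha8* and *Rufy4*, so the call depends on the tool. The genes were picked by these same counts and entered the wider fit through the sham + v libraries. A call on them therefore restates the choice and is no separate evidence of a difference. Of all 21 genes that DESeq2 called, 17 were lower and 4 higher in OVX + E2. The OVX + E2 libraries also had fewer genes at equal depth, and the part of this in the result was not tested.

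The genes that the study names were chosen on comparisons of these libraries with the OVX + v group, so their values here are not independent of that choice. They are *Gstp2*, *Stard8*, *Sra1*, *Cog5*, *Slc35b1*, *Wdr41*, *Mettl16* and *Amd2*, and a further one, *Orc8*, is a name that no gene of the table carries and was not analysed here. None of the 8 reached 10 counts in every library. Of their paralogs *Gstp1* and *Amd1*, *Amd1* did, with a log2 fold change of 0.37 (-0.14 to 0.87), and *Gm10800* was the only tested gene of the 12 listed as repeat-like. *Stard8*, a GTPase-activating protein, had counts of 34, 79, 18, 23 and 38 in the sham + v libraries and 0, 0, 1, 0 and 0 in the OVX + E2 libraries. *Sra1*, a coregulator of steroid receptors, had 179, 25, 2, 49 and 108 in the sham + v libraries and 3, 0, 0, 0 and 0 in the OVX + E2 libraries. In both genes no OVX + E2 library was above 3 counts. *Cog5*, of the Golgi tethering complex, had 68.7, 41.5, 0, 0 and 33.8 CPM in the sham + v libraries and 0 in every OVX + E2 library. Since 2 of the sham + v libraries were also at 0, the groups overlapped (edgeR adjusted p = 0.347 in the wider fit). *Slc35b1*, a transporter of the endoplasmic reticulum, had 42.9, 76.1, 109.6, 47.5 and 41.8 CPM and 5.31, 26.4, 0, 26.7 and 6.31 CPM in the same order. Every OVX + E2 library was below every sham + v library for *Slc35b1*, without a call (adjusted p = 0.676). *Mettl16* reached 3 counts in 3 sham + v and 1 OVX + E2 libraries and *Wdr41* in 3 and 0. In the OVX + v group, *Cog5* was 19.8 to 264 CPM, *Slc35b1* 35.5 to 156 CPM and *Stard8* 0.991 to 69.8 CPM.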

How the data were processed

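The authors' deposited table gives raw read counts per gene (total counts). Per the study's methods, libraries were made with a 3′ mRNA kit from 1 ng of total RNA and sequenced for 75 cycles; the authors trimmed the first 12 nucleotides, removed reads under 20 nucleotides and mapped with the defaults of CLC Genomics Workbench to GRCm39. How reads that match several places were counted under these defaults is not given in the sources used here. Other columns of the authors, including their comparisons (fold changes and p-values), were not used.

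Counts of the 10 libraries were joined by gene name. Genes with at least 10 counts in each library were tested with edgeR 4.0.16 quasi-likelihood (R 4.3.3; library size the column total, no TMM factors, Benjamini-Hochberg adjustment, threshold 0.05), without the OVX + v and OVX + RAL libraries. CPM used column totals. DESeq2 1.42.0, limma 3.58.1 on log2(CPM + 1), TMM normalization, other filters and leaving out each library were alternatives. Library measures and paralog pairs were compared by exact permutation tests. The scripts were tested on simulated data. Named genes were the 6 with the smallest p in each direction, genes the study names and their paralogs, up to 4 of the most abundant tested members of each list, and genes called in the wider fit; *Crebbp*, *Ncor1*, *Mlec*, *Nedd4*, *Ociad1* and *Rala* and others outside this rule were added once values were known. The members and lists were chosen with earlier results of these data known. Some genes are not reported here. Total counts were 1123053 to 2053255 per library.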

Additional observations from a re-analysis of the deposited data

Results flagged for a closer look

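In 15 of 138 groups of 5 values examined, 1 library lay far from the other 4 by Dixon's criterion, where about 1 in 20 groups would do so by chance, or 6.90 of these. In the sham + v group this was library 1 each time. It was high for *Ptgds*, the prostaglandin D synthase, at 85939 CPM against 37322 to 45432 CPM in the other 4 libraries, and in the same way for *Apod* at 14264 CPM against 7291 to 8002 CPM, *Apoe* at 6737 CPM against 4031 to 4551 CPM and *Coch* at 8535 CPM against 4164 to 4772 CPM. The same library was high for *Ftl1* at 1422 CPM against 929.9 to 1045 CPM, *Spp1* at 735 CPM against 270.1 to 329.6 CPM, *Igfbp4* at 628 CPM against 196 to 283 CPM and *Lyz2* at 585 CPM against 177 to 257 CPM, and for *Ndufa6* at 436 CPM against 151 to 229 CPM, *Fkbp2* at 81.8 CPM against 31.5 to 45.1 CPM and *Pam* at 138 CPM against 22.9 to 39.7 CPM. In the OVX + E2 group the libraries that stood apart differed from gene to gene. *Coch*, the fibrocyte protein, was 7992 CPM in library 11 against 5045 to 5315 CPM in the others. *Gstm1* was 117 CPM in library 12 against 291 to 336 CPM, and *Cox5a* 56.99 CPM in library 14 against 150.3 to 187 CPM. In library 15, *Hba-a2* was 1259.8 CPM against 84.9 to 396 CPM.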

How the results depend on the processing

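Of 14487 genes with a count in the 10 libraries 2433 could be compared, and 22.7% of these had an interval within a doubling, so the absence of a call leaves most genes with a wide range of possible differences. The count of 0 called genes was the same with TMM normalization, DESeq2, limma, robust edgeR, default filterByExpr, 50 counts in each library, all 20 libraries in 1 fit and each library left out (0 to 0 genes). It was 3 with 10 counts summed and 3 with no filter. In the wider fit, 3 genes were called, 21 with DESeq2 and 0 with robust edgeR; without single libraries the number was 1 to 5, with 5 without sham + v library 1, OVX + E2 library 11 or 15 and 1 without OVX + E2 library 14. Outside the filter of 10 counts in each library, 1 gene, *Amd2*, was called, 21 with DESeq2 and 0 with robust edgeR, and 0 to 2 without single libraries. The cause was not tested.

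Genes that changed sign did so without a call in the fit of 2433 genes. Without libraries 1, 13 and 14, chosen after seeing the data, the log2 fold change was -0.088 for *Myo6*, 0.15 for *Car3*, 0.12 for *S100b*, 0.096 for *Ptgds*, 0.21 for *Apod*, 0.24 for *Hba-a2*, -0.20 for *mt-Cytb* and -0.08 for *Hspb1*. In *Gstt1*, *Igfbp4* and *Gm10800*, which kept their sign, it was 0.93, 1.19 and 0.52 without libraries 1, 13 and 14. Without libraries 13 and 14 alone it was 0.016 for *Hba-a2* and -0.015 for *mt-Cytb*, and with limma -0.41 for *Hbb-bs*. With single libraries left out it ranged from -0.21 to 0.12 for *Apod*, -0.38 to 0.10 for *Car3*, -0.032 to 0.37 for *Coch*, -1.15 to 0.068 for *Hba-a2*, -0.76 to 0.46 for *Hbb-bs*, -0.36 to 0.0065 for *Otog*, -0.39 to 0.0073 for *Otol1*, -0.38 to 0.013 for *Ptgds*, -0.25 to 0.024 for *Sparc* and -0.14 to 0.17 for *mt-Cytb*, and in the wider fit from -10.52 to 3.43 for *Amd2* and -0.38 to 0.013 for *Ptgds*. It kept its sign but ranged from 0.18 to 0.47 for *Amd1*, -0.48 to -0.11 for *Atp1b2*, 0.17 to 0.38 for *Glul*, 0.006 to 0.35 for *Myo6*, -0.67 to -0.26 for *Nefm*, -0.52 to -0.27 for *Slc12a2*, 0.29 to 0.57 for *mt-Nd3* and -0.28 to -0.014 for *mt-Nd4*. The call of *mt-Co3* in the wider fit was lost without library 1, 5, 12, 13 or 14 and with TMM normalization, DESeq2 or robust edgeR, that of *Ptgds* without library 1 or 14 and with DESeq2 or robust edgeR, and that of *Amd2* without library 4 and with robust edgeR, while DESeq2 gave no p for *Amd2*. Where its call was lost, *mt-Co3* was at 0.15 without library 1 and at 0.28 to 0.37 otherwise, and *Ptgds* at 0.013 without library 1 and at -0.28 to -0.21 otherwise.

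The difference in the share of mitochondrially encoded genes ranged from -0.704 to 1.26 percentage points, and that of ribosomal protein genes from -0.351 to 0.135, with single libraries left out. The difference in genes detected at equal depth ranged from -1474 to -878 genes and passed the threshold without library 5 or 15. No paired analysis was possible because the labels number the libraries without a shared replicate number between the groups. With TMM normalization the medians of the myelin, middle ear mucosa and ribosomal protein lists changed sign, to -0.0014, -0.039 and -0.039, and no other list median did.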
